A study of Mus musculus with 8 samples.

Results

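The 8 genes that encode the subunits of the cytosolic chaperonin CCT, also called TRiC, were examined in AML12 cells: *Tcp1*, *Cct2*, *Cct3*, *Cct4*, *Cct5*, *Cct6a*, *Cct7* and *Cct8*. They were picked by symbol out of 55401 genes in each table, with the exposed-minus-control differences of these same dishes already known, both on the deposited scale and after median-of-ratios scaling. The differences between conditions are therefore given for the subunits as a description, without a test. All 8 passed the filter on low values, which 12122 genes passed.

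AML12 is a hepatocyte line from a mouse that carried a transforming growth factor alpha transgene. The poly(A) RNA of 8 culture dishes was sequenced. The 4 exposed dishes spent 1 h under Opti-ELF-WMF, a pulsed extremely low frequency weak magnetic field with a peak of 100 mG and a pulse width of 4 ms, whose frequency climbed stepwise from 1 Hz to 8 Hz over and over. The 4 control dishes spent the same 1 h without the field, with the stimulator off and in another incubator of the same model, so the field and the incubator cannot be told apart. All dishes shared the same line and medium. Control and exposed cells were prepared at the same time from 1 batch, and whether the 4 dishes of a condition were independent cultures is not stated.

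CCT is built of a pair of stacked rings, and each ring holds 1 copy of each of the 8 subunits in a fixed order. Binding and hydrolysis of ATP close a built-in lid over a protein held in the cavity, which can then fold. Actin and tubulin are its best known substrates. Nascent chains reach it through prefoldin and HSP70, and phosducin-like proteins act as its cofactors.

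The 150 bases upstream of the transcription start are shown for *Cct7* and *Cct8*, the subunits with the largest differences between conditions, and for *Tcp1* and *Cct6a*, those with the smallest. They were taken from RefSeq on GRCm38.p6 and are written 5′ to 3′ on the strand of the gene. Capitals mark the letters GGGCGG (the core of a GC box), the letters CCAAT (the CCAAT box) and the letters CCGGAAG (the core bound by ETS factors), each on either strand, so that a match on the other strand stands in its reverse complement. No motif overlaps another in these 4 stretches.
Cct7, chr6:85451355-85451504, plus strand: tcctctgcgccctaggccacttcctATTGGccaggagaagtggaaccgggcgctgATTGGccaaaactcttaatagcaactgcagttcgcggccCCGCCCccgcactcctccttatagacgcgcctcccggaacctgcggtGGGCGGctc
Cct8, chr16:87495870-87496019, minus strand: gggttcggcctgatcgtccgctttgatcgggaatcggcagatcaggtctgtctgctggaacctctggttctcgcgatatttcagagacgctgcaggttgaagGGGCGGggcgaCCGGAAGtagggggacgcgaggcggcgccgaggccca
Tcp1, chr17:12916179-12916328, plus strand: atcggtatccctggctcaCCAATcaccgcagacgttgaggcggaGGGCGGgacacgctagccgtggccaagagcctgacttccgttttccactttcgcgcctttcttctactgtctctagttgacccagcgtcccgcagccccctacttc
Cct6a, chr5:129787206-129787355, plus strand: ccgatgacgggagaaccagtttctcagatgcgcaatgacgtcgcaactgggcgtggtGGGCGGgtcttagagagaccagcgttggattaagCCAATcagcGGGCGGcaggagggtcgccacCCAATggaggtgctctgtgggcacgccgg

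RefSeq promoter windows, from 250 bases before to 50 bases after the start, were found for 7 of the 8 subunits and not for *Cct4*. *Cct2* and *Cct5* had 2 windows each. A subunit was counted if any of its windows held the motif, while the shares given beside are of single windows. GGGCGG was present for 7 of these 7 subunits, for *Cct5* in 1 of its 2 windows, against 35.7% of all 32851 windows of the same length. CCAAT was present for 4 of 7 (*Tcp1*, *Cct3*, *Cct6a* and *Cct7*), against 37.4% of all windows. CCGGAAG was present for 3 of 7 (*Tcp1*, *Cct2* and *Cct8*), for *Cct2* in 1 of its 2 windows, against 8.86%. GAANNTTC, the inner part of a heat shock element, occurred for *Cct2* alone in 1 of its 2 windows, against 7.86% of all windows. GCGCATGC, the core bound by NRF1, occurred for *Cct5* alone in 1 of its 2 windows, against 2.71%. TTTCCCGC, bound by E2F factors, and TATAAA, the TATA box, were in none of the windows of the subunits, against 1.07% and 13.6% of all windows. The 9 windows of the 7 subunits held 47.3 to 67.7% G and C, with a median of 60.3%, against a median of 52.7% over all windows. In their whole windows *Cct7* and *Cct6a* had CCAAT and GGGCGG, and *Cct8* had GGGCGG and CCGGAAG. *Tcp1* had all 3 in its whole window, with CCGGAAG running past the printed end. A link between motifs and the size of the differences was not tested. These matches describe letters in a window and not sites of binding.

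The genes lie apart on 8 chromosomes of GRCm38 in the GENCODE M21 annotation. *Tcp1* (ENSMUSG00000068039) spans chr17:12915701-12925067 on the plus strand and *Cct2* (ENSMUSG00000034024) chr10:117051001-117063814 on the minus strand. *Cct3* (ENSMUSG00000001416) spans chr3:88297116-88321767 and *Cct4* (ENSMUSG00000007739) chr11:22990519-23003780, both on the plus strand. *Cct5* (ENSMUSG00000022234) spans chr15:31590800-31601804 on the minus strand and *Cct6a* (ENSMUSG00000029447) chr5:129786998-129846371 on the plus strand. *Cct7* (ENSMUSG00000030007) spans chr6:85451514-85468475 on the plus strand and *Cct8* (ENSMUSG00000025613) chr16:87483326-87495873 on the minus strand. This annotation types 7 of the genes as protein coding and *Cct6a* as a processed transcript with 0 coding transcripts, so its model and span are less certain. For 6 of the 8 genes, all but *Cct2* and *Cct4*, a gene on the opposite strand starts within 2 kb of the subunit's start. For *Tcp1*, *Cct6a* and *Cct7* this gene starts inside the subunit gene and runs back over its start. For *Cct3*, *Cct5* and *Cct8* it points away from the subunit.

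Abundance was deposited as TPM, a transcript abundance corrected for gene length and brought to the same total in every sample. TPM keeps no depth, so the counting error of each value is unknown. Because the total is fixed, a fall in abundant transcripts lifts all others, and the conditions did differ in such transcripts: genes encoded by mitochondrial DNA held 8.69 to 9.42% of the TPM in control dishes and 5.99 to 7.69% in exposed dishes. Values are therefore given as deposited and under 3 other scalings. No gene passed an adjusted p-value of 0.05 among the 12122 tested by limma with Benjamini-Hochberg adjustment (0% called), while 1894 genes (15.6%) had an unadjusted p-value under 0.05. Of these, 76.6% were higher in exposed dishes. Under the other scalings 1377 to 1492 genes had such a p-value, of which 42.3 to 55.2% were higher. The hepatocyte markers *Trf* (808 to 892 TPM), *Ttr* (333 to 384) and *Hnf4a* (180 to 218) were abundant, as were the keratins *Krt8* (2206 to 2431) and *Krt18* (1825 to 2071). The hepatocyte markers *Alb* (46.1 to 58.2) and *Apoe* (34.6 to 44.9) were lower, and *Apoa1* reached no more than 5.29 TPM. The bile duct markers *Krt19* (1101 to 1244) and *Krt7* (63.5 to 75.4) were also present. Markers of leukocytes, endothelium and stellate cells were at or near 0: *Adgre1* and *Cdh5* were listed at 0 in every dish, *Ptprc*, *Pecam1* and *Des* did not exceed 0.20 TPM, and *Col1a1* did not exceed 1.20. In bulk RNA, a different number of cells of one kind and a different amount of RNA per cell cannot be told apart.

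All 8 subunit genes were abundantly expressed, and their transcript levels fell into an upper and a lower set of 4. The mean TPM over the 8 dishes ran from 468 for *Cct5* through 444 for *Tcp1*, 439 for *Cct7* and 428 for *Cct2* to 322 for *Cct6a*, 299 for *Cct3*, 293 for *Cct8* and 253 for *Cct4*. Each protein stands once in each ring, yet the most abundant transcript, that of the epsilon subunit CCT5, was above the least abundant, that of the delta subunit CCT4, in every dish. The order of the levels was not used to choose the genes. Each neighbouring pair in this order was compared within dishes by an exact two-sided sign-flip permutation test over 8 dishes, whose smallest possible p-value is 0.00781, with adjustment over the 7 pairs. The pairs were defined by the order of the same values. The test asks only whether a ratio repeats between dishes. A fixed bias of a gene, from its gene model or from reads of an overlapping gene, would repeat as well and was not tested. Small steps are therefore steps in TPM and need not be steps in transcript number. The widest step lay between the sets: *Cct2* exceeded *Cct6a* by 0.412 ± 0.057 on the log2 scale (SD, n = 8 dishes, exact permutation p = 0.00781, adjusted p = 0.0109). The steps from *Cct5* to *Tcp1* (log2 ratio 0.075), from *Cct7* to *Cct2* (0.036), from *Cct6a* to *Cct3* (0.109) and from *Cct8* to *Cct4* (0.211) also had the same direction in 8 of 8 dishes and the same adjusted p-value in the exact permutation test. *Tcp1* and *Cct7* were not separated beyond their spread (log2 ratio 0.017 ± 0.034, *Tcp1* higher in 5 of 8 dishes, exact permutation p = 0.211). *Cct3* exceeded *Cct8* by 0.030 ± 0.031 in 7 of 8 dishes (adjusted p = 0.0456, exact permutation test), and this call was lost in 7 of the 8 fits that left out a single dish, with an adjusted p-value of up to 0.0911 by the exact permutation test.

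**Figure D1:**
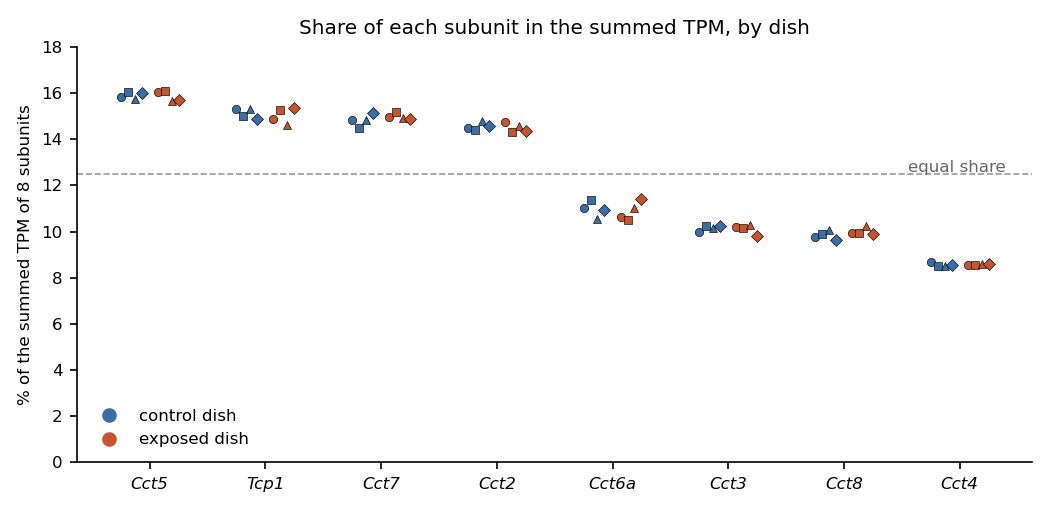
Share of each subunit in the summed TPM of the 8 subunits (y axis, percent) in every dish, with subunits ordered by mean TPM, control dishes in blue and exposed dishes in orange, and replicates 1 to 4 as circle, square, triangle and diamond. *Cct5*, *Tcp1*, *Cct7* and *Cct2* lie above the equal share in every dish and the others below it, and the blue and orange points of each subunit overlap.

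The 8 subunits were all higher, on average, in exposed dishes than in control dishes, by 6.07 to 8.53% of TPM as deposited. A log2 difference above 0 was found for 63.7% of all tested genes and 87.8% of the 714 other genes of at least 200 TPM. The exposed dishes all lay above the control dishes for 7 of the 8 subunits, all but *Cct6a*. Over all tested genes 8.01% did the same, and 31.0% of the 722 genes with a mean of at least 200 TPM, an abundance limit chosen after the data were examined that all 8 subunits pass. Since these values chose the genes, nothing is read from either count.

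*Cct8*, which encodes the theta subunit, had 282.88, 283.76, 280.99 and 275.03 TPM in the 4 control dishes and 303.94, 307.08, 311.14 and 296.30 in the 4 exposed dishes. Its lowest exposed dish, replicate 4, stood above its highest control dish, replicate 2. The means were 280.66 ± 3.93 and 304.62 ± 6.28 (SD, n = 4), a difference of 0.118 (SE 0.023) on the log2(TPM + 1) scale, the largest of the 8. *Cct7*, which encodes the eta subunit, had 429.44, 415.30, 414.04 and 431.06 TPM in control dishes and 458.39, 469.72, 452.90 and 444.82 in exposed dishes. Control replicates 2 and 3 were low and replicates 1 and 4 high, and all exposed dishes stood above both pairs. Its means were 422.46 ± 9.03 and 456.46 ± 10.5 (SD, n = 4), a difference of 0.111 (SE 0.025).

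*Cct4*, for the delta subunit, had 251.63, 244.19, 236.79 and 244.09 TPM in control dishes and 262.41, 264.32, 261.27 and 257.51 in exposed dishes. The exposed dishes lay close together and above control replicate 1, the highest control. The difference was 0.098 (SE 0.024). *Cct5*, for the epsilon subunit, which is able to assemble into rings without the other subunits, had 457.81, 459.49, 438.50 and 456.23 TPM in control dishes and 491.17, 497.97, 474.51 and 469.22 in exposed dishes. Control replicate 3 stood below its 3 companions, and exposed replicates 1 and 2 above theirs. The difference was 0.093 (SE 0.027).

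*Cct2*, for the beta subunit, had the tightest controls, with 419.39, 411.73, 413.07 and 415.55 TPM, a coefficient of variation of 0.81%, and 452.01, 443.51, 442.08 and 429.47 in exposed dishes. All exposed dishes were above the controls, by a difference of 0.090 (SE 0.022). *Cct3*, for the gamma subunit, had 288.62, 293.39, 282.97 and 292.24 TPM in control dishes and 311.58, 314.69, 311.36 and 293.99 in exposed dishes. Here exposed replicate 4 was apart from the other exposed dishes and only just above control replicate 2, and the difference was 0.089 (SE 0.027).

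*Tcp1*, for the alpha subunit and the gene that gave the family its name, had 443.34, 429.76, 427.17 and 424.44 TPM in control dishes and 455.10, 472.49, 443.55 and 459.16 in exposed dishes. Exposed replicate 3 and control replicate 1 were nearly level, so the separation was narrow, and the difference was 0.085 (SE 0.026). *Cct6a*, for the zeta subunit, which has a testis-specific paralogue in *Cct6b*, had 318.98, 324.92, 294.60 and 311.72 TPM in control dishes and 325.82, 324.56, 334.60 and 341.11 in exposed dishes. Its conditions overlapped, since exposed replicate 2 lay just below control replicate 2. Its controls varied most, with a coefficient of variation of 4.20% against 0.81 to 2.48% for the others, and its difference was 0.085 with the largest error (SE 0.033). The spread of the 8 differences, from 0.085 to 0.118, was of the order of the standard error of a single difference, 0.022 to 0.033.

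**Figure D2:**
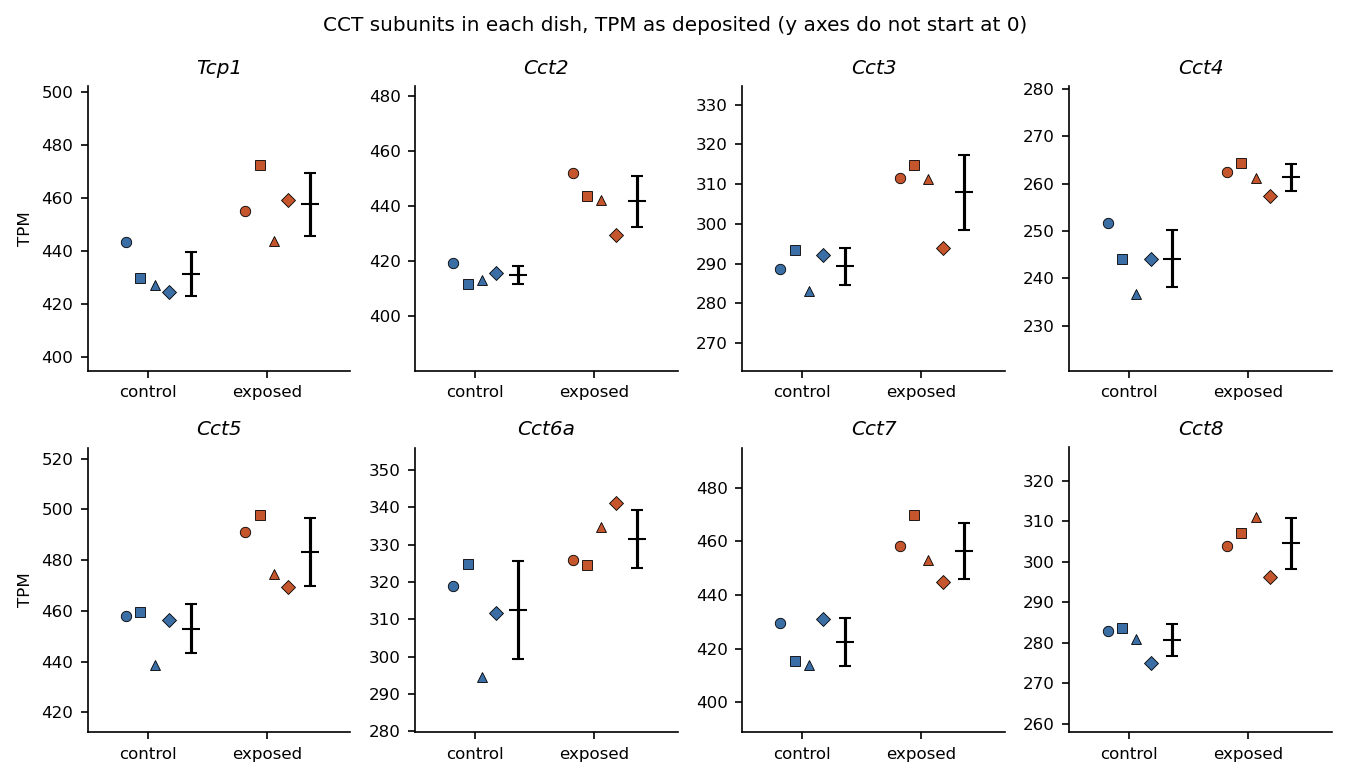
TPM as deposited (y axis) of each subunit in the 4 control dishes (blue) and the 4 exposed dishes (orange), with replicates 1 to 4 as circle, square, triangle and diamond, and bars for the mean and SD; the y axes do not start at 0. The exposed dishes all lie above the control dishes except for *Cct6a*, where exposed replicate 2 (324.56) is just below control replicate 2 (324.92).

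The same dishes tended to stand at the ends of the range for several subunits. Control replicate 3 was the lowest control for 5 of the 8 subunits, and exposed replicate 4 was the lowest exposed dish for 6. Exposed replicate 2 was the highest of all dishes in its condition for 5. Exposed replicate 2 also had the lowest share of mitochondria-encoded transcripts (5.99%) and control replicate 3 the highest (9.42%); the part of this in the subunit values was not tested beyond the rescaling given next.

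Summed over the 8 subunits, TPM was 2892, 2863, 2788 and 2850 in control dishes and 3060, 3094, 3031 and 2992 in exposed dishes. All exposed sums were above all control sums. The means were 2848 ± 43.8 and 3044 ± 43.6 (SD, n = 4), which is 6.89% higher after exposure, and the sum made up 0.285% of all TPM in control and 0.304% in exposed dishes. The mean log2(TPM + 1) of the 8 subunits was 8.467, 8.454, 8.413 and 8.445 in control dishes and 8.547, 8.562, 8.538 and 8.516 in exposed dishes. This gave 8.444 ± 0.023 and 8.541 ± 0.019 (SD, n = 4), a difference of 0.096.

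The size of this difference depended on the scaling. It was 0.074 after median-of-ratios scaling, 0.063 after upper-quartile scaling and 0.067 when TPM was rescaled without mitochondria-encoded genes. Under all 4 scalings the exposed dishes' means of the 8 subunits lay above those of all control dishes. The median over all 12122 tested genes moved with the scaling as well, from 0.026 as deposited to 0.005, -0.005 and -0.002. The median of the 8 differences was 0.091 as deposited and 0.069, 0.058 and 0.062 under the others. It exceeded the median of all tested genes by 0.063 to 0.065. Each scaling divides all values of a dish by a common factor and so shifts all genes nearly alike. This excess could therefore hardly change, and its constancy is no added evidence. Other abundant genes also lay above that median: the 714 other genes of at least 200 TPM had a median difference of 0.062 as deposited (interquartile range 0.029 to 0.085) and of 0.039, 0.028 and 0.032 under the others. The smallest differences among the subunits, those of *Tcp1* and *Cct6a*, were at the upper quartile of these abundant genes as deposited. That place is kept under the other scalings for the same reason.

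**Figure D3:**
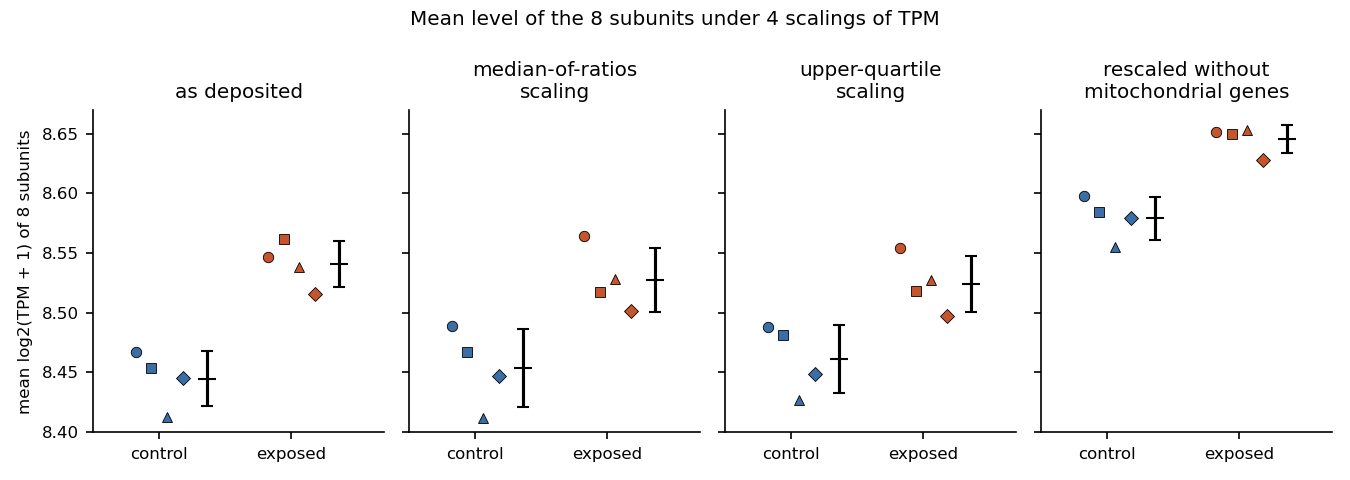
Mean log2(TPM + 1) of the 8 subunits (y axis) in each control dish (blue) and exposed dish (orange) under 4 scalings of TPM, with replicates 1 to 4 as circle, square, triangle and diamond and bars for the mean and SD. The gap between conditions is 0.096 as deposited and 0.063 to 0.074 under the other scalings, with no overlap of dishes in any panel.

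*Cct7* and *Cct8* were separate between conditions under all 4 scalings, as the mean was, and the other 6 subunits were not. After median-of-ratios scaling the conditions were separate for 2 of the 8 subunits, *Cct7* and *Cct8*, against 4.58% of all tested genes and 16.2% of genes of at least 200 TPM. On that scale *Cct7* had 436.14, 419.23, 413.91 and 431.90 in control dishes and 463.93, 455.35, 449.63 and 440.29 in exposed dishes, and *Cct8* had 287.29, 286.44, 280.90 and 275.57 against 307.62, 297.68, 308.89 and 293.28. Upper-quartile scaling gave the same 2 subunits, against 3.37% of all genes and 11.8% of the abundant ones. Rescaling without mitochondria-encoded genes kept 5 (*Cct2*, *Cct4*, *Cct5*, *Cct7* and *Cct8*), against 3.83% and 16.3%. Each of the 8 differences was above 0 under every scaling, between 0.052 and 0.118. Of all tested genes 63.7% were above 0 as deposited, and 52.8%, 47.0% and 49.1% under the other scalings in the order above. For other genes of at least 200 TPM the shares were 87.8%, 79.3%, 72.3% and 74.1%. *Cct8* and then *Cct7* had the largest difference under all 4, an order that a common factor per dish can hardly change.

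**Figure D4:**
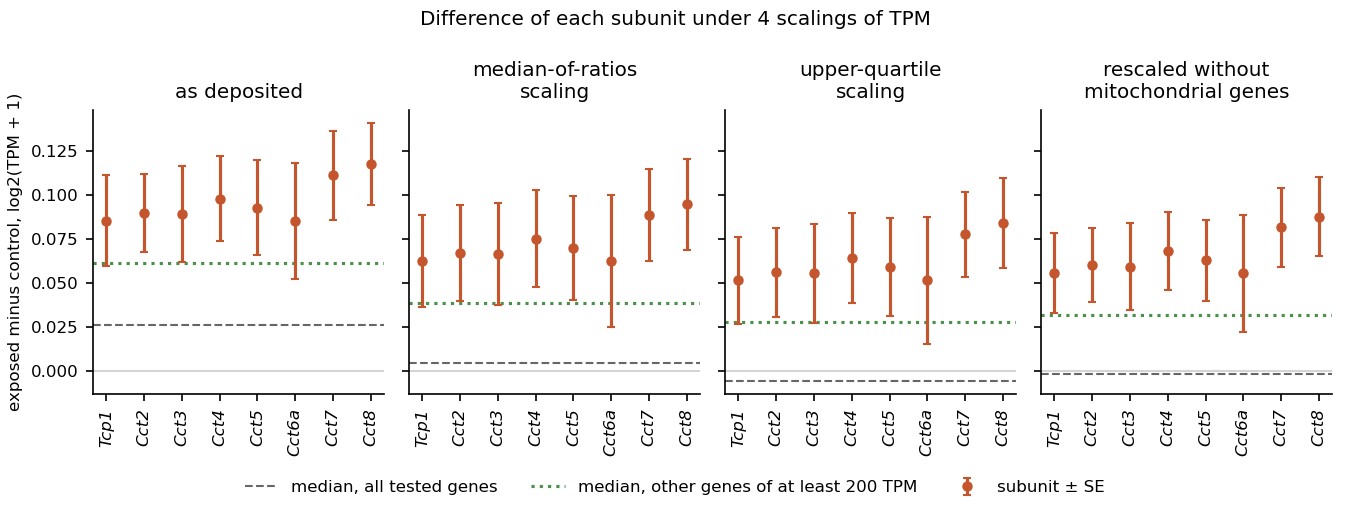
Exposed-minus-control difference in log2(TPM + 1) of each subunit with its standard error (orange) under 4 scalings of TPM, beside the median of all tested genes (grey dashes) and of other genes of at least 200 TPM (green dots). All 8 subunits lie above both medians in every panel, and the whole set shifts down together from 0.085 to 0.118 as deposited to 0.052 to 0.084 after upper-quartile scaling. Each scaling divides a dish by a common factor, so subunits and medians shift nearly alike.

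A share within a dish does not move with the scaling. The proportions of the 8 subunits were nearly the same in both conditions, and control and exposed dishes overlapped for 8 of 8 subunits. The largest shifts were those of *Cct7*, from 14.83 ± 0.25% to 14.99 ± 0.13% of the summed TPM (SD, n = 4), and of *Cct8*, from 9.86 ± 0.18% to 10.01 ± 0.17%. *Tcp1* went from 15.14 ± 0.22% to 15.03 ± 0.34% and *Cct6a* from 10.97 ± 0.32% to 10.89 ± 0.41%. The other 4 moved by 0.014 to 0.059 percentage points in either direction. Each shift was smaller than the SD of that share over the control dishes.

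The 8 profiles over the dishes were alike but not equally so. Each profile was centred on its own mean, and its root mean square distance on the log2 scale to the mean profile of the 8 subunits was 0.010 for *Cct4*, the nearest, 0.017 for *Cct5* and *Cct2*, 0.020 for *Cct7* and 0.021 for *Cct3*. *Cct8* (0.024), *Tcp1* (0.025) and *Cct6a* (0.041) were further away. Genes outside the complex that lay nearer than the subunit numbered 3 for *Cct4*, 17 for *Cct5*, 23 for *Cct2*, 44 for *Cct7* and 53 for *Cct3*. They numbered 129 for *Cct8*, 188 for *Tcp1* and 1173 for *Cct6a*. The mean profile includes each subunit, which favours the subunits. Among 8421 genes with a mean of at least 10 TPM, the 5 nearest outside the complex were *Ppa1*, a cytosolic pyrophosphatase (0.007), *Srm*, spermidine synthase (0.008), *Timm23*, the channel of the mitochondrial inner membrane translocase (0.008), *Hsp90ab1*, the constitutive cytosolic HSP90 (0.012), and *Cnbp*, a nucleic acid-binding zinc finger protein (0.012). *Ppa1* had 240.63, 236.81, 231.97 and 234.50 TPM in control dishes and 256.07, 256.94, 253.65 and 249.14 in exposed dishes. The likeness holds over 8 dishes that share a scaling, and it was a search over many genes, so it stands as a description.

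Genes that work with the complex were compared through lists, which held 72 tested genes in all. None of the 72 passed the adjusted threshold by limma (lowest adjusted p = 0.122), 28 were higher and 1 lower at an unadjusted p-value under 0.05, against 12.0% higher and 3.65% lower among all 12122 tested genes. A difference above 0 was found for 57 of the 72 as deposited and for 54, 48 and 49 under the median-of-ratios, upper-quartile and mitochondria-free scalings. Over all tested genes the shares above 0 were 63.7%, 52.8%, 47.0% and 49.1% in the same order, and over the 714 other genes of at least 200 TPM they were 87.8%, 79.3%, 72.3% and 74.1%. The lists, like the subunits, were drawn up with earlier results of these data known.

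Prefoldin, the 6-subunit holdase that hands nascent actin and tubulin to CCT, was measured in full. Its median difference was 0.088, with 5 of 6 subunits above 0 and 1 separate between conditions, against 8.01% of all tested genes, and 0 separate under the other 3 scalings. *Pfdn1* was the separate one, with 104.14, 105.62, 105.11 and 110.09 TPM in control and 115.23, 117.14, 111.74 and 110.16 in exposed dishes (difference 0.095, limma adjusted p = 0.177). *Pfdn6* (0.107) and *Pfdn4* (0.101) had the largest differences, and *Pfdn5*, the most abundant, went from 155 to 152 TPM (difference -0.026). Of the cofactors of CCT, *Pdcl2* was listed at 0 and 3 were tested, with a median of 0.049 and 0 separate. *Pdcl3*, the most abundant phosducin-like gene, had 110 TPM in control and 109 TPM in exposed dishes (-0.014), *Pdcl* a difference of 0.078, and *Txndc9* 0.049.

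Actin and tubulin cannot fold without CCT. Of 17 listed actin, actin-related and tubulin genes 16 were tested, all 16 above 0 as deposited and 15 after upper-quartile scaling, with a median difference of 0.089. The conditions were separate for 11 of 16 as deposited, against 8.01% of all tested genes and 31.0% of those of at least 200 TPM, to which 11 of the 16 belong. They were separate for 7 after median-of-ratios scaling (4.58% and 16.2%), 7 after upper-quartile scaling (3.37% and 11.8%) and 8 after rescaling (3.83% and 16.3%). *Actb*, cytoplasmic beta-actin, had 2621, 2659, 2633 and 2638 TPM in control dishes and 2849, 3004, 2739 and 2797 in exposed dishes (difference 0.109, limma adjusted p = 0.142). *Tuba4a*, an alpha-tubulin, had the largest difference, from 341 ± 9.4 to 378 ± 8.9 TPM (SD, n = 4; 0.146, limma adjusted p = 0.122). Its 4 exposed dishes were above its controls under all 4 scalings, as were those of *Actb*, *Tuba1a*, *Tubb4b* and *Tubb5*. *Tubb5* went from 827 to 895 TPM (0.114), the highest of the listed beta-tubulins and close to *Tubb4b* (809 to 863 TPM). *Tubb2a* went from 97.6 to 105 TPM (0.110). The remaining separate genes were *Actg1* (0.066), *Actr2* (0.066), *Tuba1a* (0.084), *Tuba1b* (0.104), *Tuba1c* (0.080), *Tubb4b* (0.093) and *Tubb6* (0.098). *Tubb3*, the neuronal beta-tubulin, did not exceed 0.09 TPM.

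Of 14 other listed clients, mostly proteins with WD repeats, 13 were tested. Their median difference was 0.055, with 11 above 0 and 4 separate as deposited (8.01% of all tested genes), 2 separate after median-of-ratios scaling (4.58%) and after upper-quartile scaling (3.37%), and 1 after rescaling (3.83%). *Gnb1*, a G protein beta subunit that CCT folds together with a phosducin-like protein, had 309.29, 312.44, 311.13 and 320.83 TPM in control and 333.17, 359.82, 345.96 and 339.53 in exposed dishes (difference 0.136, limma adjusted p = 0.122). The related *Gnb2*, the most abundant of the list, overlapped between conditions (0.059). The other separate genes were *Hdac3*, a histone deacetylase (0.084), *Ppp2r2a*, a regulatory subunit of protein phosphatase 2A (0.075), and *Dcaf7*, an adaptor with WD repeats (0.072).

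Tubulin leaves CCT for a further set of folding cofactors. Of these 6 genes, 5 were above 0 as deposited and 4 under each other scaling, with a median of 0.102 and 1 separate as deposited, against 8.01% of all tested genes, and 0 with every exposed dish above every control dish under the other 3 scalings. *Tbcd*, which takes up beta-tubulin, went from 37.1 to 41.6 TPM (0.160, limma adjusted p = 0.194), with *Tbcc* (0.154) and *Tbcb* (0.151) overlapping between conditions. *Tbce* went the other way, from 26.6 to 24.7 TPM (-0.105), with every exposed dish below every control dish after rescaling without mitochondria-encoded genes, and the most abundant, *Tbca*, from 168 to 174 TPM (0.052).

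Of the 12 genes of the cytosolic HSP70 and HSP90 systems, 9 were above 0 and 5 were separate as deposited, with a median of 0.060, against 8.01% of all tested genes and 31.0% of those of at least 200 TPM, to which 6 of the 12 belong. After median-of-ratios scaling 3 were separate, against 4.58% and 16.2%. Those 3 were *Hspa4*, a nucleotide exchange factor of HSP70 (199 to 218 TPM, 0.133), *Ahsa1*, an activator of the HSP90 ATPase (164 to 178 TPM, 0.117), and *Hsp90ab1* (2102 to 2247 TPM, 0.096), each with a limma adjusted p-value of 0.122. *Hspa8*, the constitutive HSP70 and the most abundant of the list, went from 2607 to 2728 TPM (0.065), and *Stip1*, which links HSP70 to HSP90, had 0.063. The stress-inducible *Hspa1a* was low and not higher after exposure, at 4.20 ± 0.36 TPM in control and 3.84 ± 0.38 TPM in exposed dishes (SD, n = 4; -0.106), and *Hspa1b* was at 5.40 and 5.22 TPM. Among the heat shock factors, *Hsf1*, the main activator of heat shock genes, had 0.027 as deposited and was below 0 after upper-quartile scaling and after rescaling, and *Hsf2* had 0.081, so that their median was 0.054 with 0 separate.

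The mitochondrial chaperonin gave 2 unlike values. *Hspd1*, which forms its rings, had 770, 745, 739 and 731 TPM in control and 816, 788, 811 and 775 in exposed dishes (0.096, limma adjusted p = 0.142). *Hspe1*, its lid, was at 391 TPM in both conditions (0.0003 as deposited, below 0 under the other scalings), which left a median of 0.048 for the pair. Of 4 genes that resemble CCT subunits in sequence, *Cct6b* did not exceed 0.15 TPM, and the tested 3 had a median of 0.037 with 0 separate. *Mkks* was at 13.3 and 14.1 TPM, *Bbs10* at 1.27 and 1.32, and *Bbs12* at 5.09 and 4.68 (-0.102); all are chaperonin-like genes of Bardet-Biedl syndrome.

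**Figure D5:**
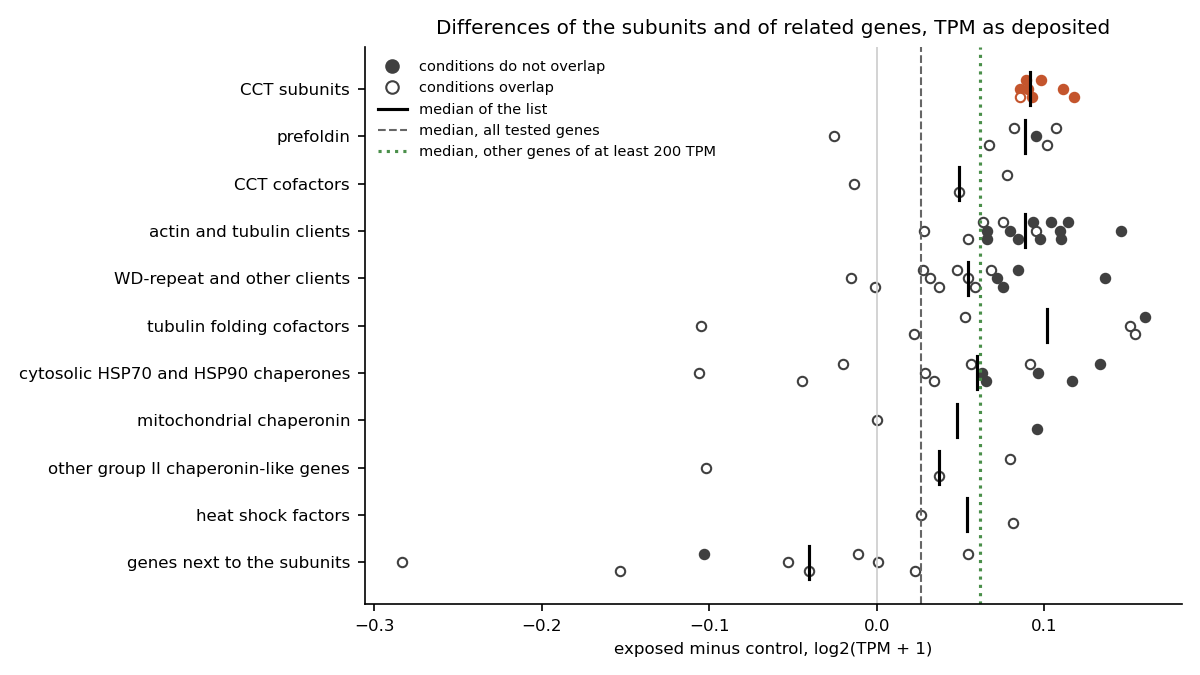
Exposed-minus-control difference in log2(TPM + 1), as deposited (x axis), of the subunits (orange) and of tested genes in each list (grey), where filled points mark genes whose conditions do not overlap and bars mark list medians. The subunits sit in a narrow band from 0.085 to 0.118, the actin and tubulin clients spread around a like median of 0.089, and the genes next to the subunits have a median of -0.040.

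The genes that lie next to the subunits had mixed differences, most of them below 0. Of those tested, 0 reached a mean of 200 TPM, so they are less abundant than the subunits. Of 15 genes that overlap a subunit or lie within 2 kb of it, 9 were tested, and their median difference was -0.040 as deposited, with 3 of 9 above 0, and -0.063 after median-of-ratios scaling. The partners that start near a subunit's start on the opposite strand were *Mrpl18*, a mitochondrial ribosomal protein gene beside *Tcp1* (106 to 110 TPM, 0.055), *Psph*, phosphoserine phosphatase, beside *Cct6a* (38.9 to 37.8 TPM, -0.040), *Pradc1* beside *Cct7* (18.4 TPM in both, 0.0005), *Fam173b* beside *Cct5* (27.8 to 28.2 TPM, 0.023) and *Tsacc* beside *Cct3* (2.16 to 1.56 TPM, -0.284). The conditions overlapped for each of these 5 as deposited, *Psph* had every exposed dish below every control dish after upper-quartile scaling (-0.073), and *Pradc1* and *Fam173b* changed sign with the scaling. The sixth, *B130034C11Rik* beside *Cct8*, did not exceed 0.35 TPM. *Sumf2*, downstream of *Cct6a*, had -0.154 (SE 0.078) and *Usp16*, whose end overlaps that of *Cct8*, -0.053 (SE 0.105). The difference of *Mrpl18* (SE 0.028) was within error of that of *Tcp1* (0.085, SE 0.026), and that of *Tsacc* was imprecise (SE 0.214). *Cmbl*, a hydrolase gene downstream of *Cct5*, was the 1 gene of the list with separate conditions as deposited, at 40.36, 43.12, 38.86 and 40.43 TPM in control and 36.78, 38.65, 38.54 and 37.22 in exposed dishes (-0.103, limma adjusted p = 0.230), where 1.86% of all tested genes had every exposed dish below every control dish.

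Overlaps and copies bear on how surely reads were assigned. *Mrpl18* and *Acat3* overlap *Tcp1*, *Psph* overlaps *Cct6a*, *Pradc1* overlaps *Cct7* and *Usp16* overlaps *Cct8*, all on the opposite strand. The library kit keeps the strand, but whether the counting used it is not given in the sources used here, so these 4 subunits are uncertain to that extent. The snoRNA genes inside *Tcp1* and *Cct6a* were listed at 0. No transcript outside the subunit genes was 95% or more identical to a subunit across 80% or more of its length. The closest was *Cct3-ps1*, a processed pseudogene of *Cct3* with 91.4% identity, and among the 5 processed pseudogenes found (also *Gm11516*, *Gm15495*, *Gm12180* and *Tcp1-ps1*) the highest TPM in any dish was 0.08. The paralogue *Cct8l1* did not exceed 0.05 TPM.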

How the data were processed

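Poly(A) RNA of 4 control and 4 exposed dishes of AML12 cells was sequenced by a service provider after stranded library preparation. The authors deposited 1 table per dish with a TPM value for each of 55401 genes. The submitters' processing notes name mm10, Trimmomatic 0.39, STAR 2.7.4a and RSEM 1.3.3; the annotation and the strand setting are not given in the sources used here. The labels number the dishes but do not say that they were separate cultures, so p-values measure the spread between dishes, which may be technical.

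Genes with at least 1 TPM in at least 4 dishes were tested on log2(TPM + 1) with limma 3.58.1 (lmFit, eBayes with a trend) in R 4.3.3, two-sided, with Benjamini-Hochberg adjustment over all 12122 genes. On that scale the fold of a weakly expressed gene comes out too small. The members and lists were chosen with earlier results of these data known. Named were all subunits and, in each list, genes with separate conditions, the most abundant and the 3 with the largest difference, and the 5 genes with the nearest profile; the remaining cofactors, chaperonin-like genes and neighbours were added to the text. Median-of-ratios factors were computed on genes above 0 in all 8 dishes, and upper-quartile factors on tested genes. Positions came from GENCODE M21, copies from BLAST 2.17.0. The scripts were tested on simulated data. A planned comparison of the proteins of the subunits was not run. Alternatives covered the scaling, the pseudocount (0.1), the filter, a replicate block, and the omission of each dish in turn.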

Additional observations from a re-analysis of the deposited data

Results flagged for a closer look

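In each condition, a dish was singled out where its gap to the nearest other dish took up most of the range of the 4 dishes. Among 110 sets of 4 dishes screened, 8 met this, where chance alone gives about 1 in 20, or 5.5. For the subunits, *Cct3* in exposed replicate 4 was at 293.99 TPM against 311.36 to 314.69 in the other exposed dishes, *Cct5* in control replicate 3 at 438.50 TPM against 456.23 to 459.49, and the share of *Cct8* in the summed TPM in exposed replicate 3 at 10.26% against 9.90 to 9.93%. Among related genes, *Tubb4b* in exposed replicate 2 was at 896.25 TPM against 848.86 to 853.50, *Gnb2* in exposed replicate 4 at 362.35 against 387.49 to 389.15, and *Tbca* in exposed replicate 1 at 188.11 against 168.38 to 171.24. *Ppp2r2a* was at 96.51 TPM in control replicate 4 against 100.93 to 101.35, and at 110.13 TPM in exposed replicate 3 against 103.32 to 104.48.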

How the results depend on the processing

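All 104 alternative values of the 8 single differences stayed above 0, between 0.052 and 0.131, and 8 of them moved by more than the spread between dishes. For a subunit with separate conditions, leaving out a dish cannot bring the difference below 0. A replicate block cannot change a difference here, as every replicate number holds a dish of each condition. The genes were also chosen with these differences known, so the shared sign says nothing on stability. The mean difference of the subunits moved to 0.074 with median-of-ratios scaling, 0.063 with upper-quartile scaling and 0.067 without mitochondria-encoded genes, and lay between 0.086 and 0.105 when single dishes were left out. The number of subunits with separate conditions went from 7 to 2 under median-of-ratios and under upper-quartile scaling and to 5 without mitochondria-encoded genes. It was 7 or 8 when a dish was left out, but leaving out a dish can only keep or raise this count. That range therefore says nothing on stability. Shares of *Cct7* and *Cct8* stayed higher in exposed dishes whichever dish was left out, by 0.051 to 0.256 and 0.065 to 0.225 percentage points, while each of the other 6 shares changed sign for some dish. These 2 shares had the largest of the 8 shifts, so their sign was less apt to change. Their control and exposed dishes overlapped all the same. Of the 7 neighbouring pairs of levels, 5 or 6 passed the exact permutation test when a dish was left out.

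The number of genes with a limma adjusted p-value under 0.05 went from 0 to 1 with median-of-ratios scaling, 1 with upper-quartile scaling and 1 with at least 1 TPM required in all 8 dishes, in each case *1110028F11Rik*, which was lower in exposed dishes. It was 0 to 2 when a dish was left out, with 2 (*Fgfr3* and *Gm15446*) without control replicate 2 and 1 (*Gm7329*) without control replicate 3. These genes were named after their values were seen, and the cause was not tested.

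The replicate numbers did not pair the dishes: the correlation of deviations between same-numbered dishes averaged -0.013 (-0.042 to 0.026), and 0 of 4 control dishes correlated best with its own number. When the number was fitted as a replicate block in limma all the same, 0 genes passed the adjusted threshold and 1889 had an unadjusted p-value under 0.05. The mean difference was again 0.096, which a block cannot change when every number holds a dish of each condition. Depth is unknown, 4 dishes a condition limit the precision, and the field shares its contrast with the incubator.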
